A study of Microtus ochrogaster with 23 samples.

Results

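Enpp2 encodes autotaxin, a secreted lysophospholipase D that releases the signalling lipid lysophosphatidic acid (LPA) from lysophosphatidylcholine. LPA acts on cells through a family of G protein-coupled receptors and is cleared by lipid phosphatases at the cell surface. In the brain autotaxin is known as an abundant product of the choroid plexus epithelium and of oligodendrocytes, and LPA signalling has been studied in neural progenitors and in myelination. CpG methylation, the mark measured here, is typically absent from CpG-dense promoters, where transcription starts, and high across the CpG-poor remainder of mammalian genes.

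The Enpp2 locus was examined as all CpG cytosines with reads between positions 118094 and 238108 of linkage group LG3 in the prairie vole assembly MicOch1.0, that is, the annotated gene span (123094 to 233108) with 5000 bp on each side. Of 4051749 cytosines read in the series, 205 fell in this window, 177 of them within the gene span, 26 in the low-coordinate flank and 2 in the high-coordinate flank. The gene was chosen on the contrast of Attacker with Parental males in these same libraries. For that contrast the study reported raised Enpp2 RNA together with hypermethylated gene-body sites in Attacker. Values in the contrast are therefore given as a description without a test. Contrasts of those males with Father share their animals and are treated the same way. The contrast of Father with Mother did not enter the choice and was tested. The annotation used here gives the gene's span but neither its exons nor its strand, and no other annotated gene overlaps the window. The nearest neighbours are Taf2, 46437 bp away on the low-coordinate side, and Ccn3, 74508 bp away on the other.

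DNA methylation was profiled by reduced representation bisulfite sequencing (RRBS), which reads CpG cytosines near MspI cut sites after bisulfite conversion of unmethylated cytosine. Each of 23 libraries came from 100 ng of DNA from the dentate gyrus of 1 adult wild-type vole after a test with an unfamiliar pup. The 6 Attacker and 6 Parental animals were sexually naive virgin males that attacked or cared for the pup. The 5 Father males and 6 Mother females were pair-bonded parents, housed with their offspring and tested postpartum. Sex, pregnancy and birth cannot be told apart from group between Mother and the rest. Nor can mating, pair bonding and parenthood be told apart between Father and the virgin males. By the study's methods, Attacker males were taken from the pup once they showed aggression. The length of pup exposure therefore cannot be told apart from group between Attacker and the rest. The tissue was a punch holding several cell types, so a methylation level is an average over them, and the DNA libraries cannot show which cells expressed Enpp2. The libraries held 64896224 to 129376223 cytosine calls each. At the 434480 cytosines with 10 or more reads in every animal the genome-wide mean level lay between 4.95% and 6.35%.

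Coverage set what could be compared at Enpp2. Each animal had reads at 99 or more of the 205 cytosines and 3828 to 9182 calls in the window. Only 72 cytosines (35.1%) were read in all 23 animals, against 21% of the cytosines of the whole series, and 52 had 10 or more reads in every animal. At the other end, 109 cytosines were read in fewer than 12 animals and 30 in a single animal. Neighbouring cytosines often sat on the same sequenced fragments. Of the 205 cytosines, 117 had the same read number as another in all animals, so many of them were not separate observations.

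The methylation profile fell into a CpG-dense, nearly unmethylated stretch at the low-coordinate end of the gene, a small unmethylated cluster within the gene, and a long, sparsely read and mostly methylated remainder. Runs of at least 5 cytosines read in at least 12 animals, with gaps of at most 200 bp, gave 2 clusters. The first cluster ran from 122674 to 123894, across the annotated end of the gene, and held 96 cytosines and 83.0% of all calls in the window. The second cluster, 153732 to 153854, held 8 cytosines and lay 30638 bp inside the gene. Inside the gene the longest stretch without any cytosine read was 17654 bp, from 124547 to 142201.

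**Figure D1:**
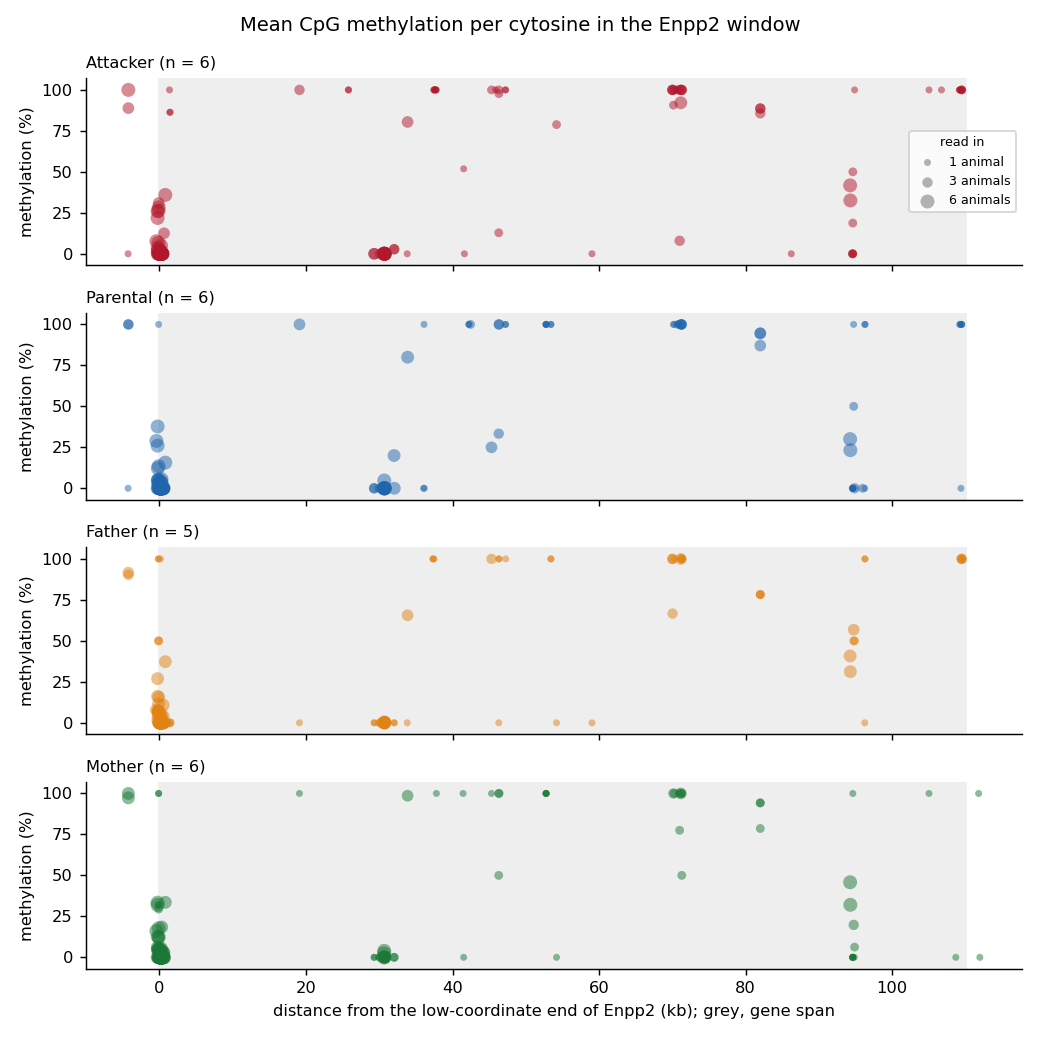
Mean methylation (%) of each cytosine in the 4 groups against distance in kb from the low-coordinate end of Enpp2, with larger points for cytosines read in more animals and the gene span in grey. The large points gather near 0% at the gene end and in the cluster 30638 bp inside it, while most small points, which stand for 1 to 3 animals, sit at 100% or at 0%.

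Within the gene, the first cluster was unmethylated in every group. Of 1494 values (1 animal at 1 cytosine, at least 5 reads) from its 73 cytosines inside the annotated span, 94.0% were exactly 0 and 0.201% exactly 100. Over the 40 of these cytosines with 10 or more reads in every animal, the mean level was 0.263% ± 0.46 (SD, n = 6) in Attacker, 0.519% ± 0.373 (n = 6) in Parental, 0.472% ± 0.356 (n = 5) in Father and 0.693% ± 0.597 (n = 6) in Mother. All 4 groups overlapped, and in each at least 1 animal was at 0. The second cluster was also near 0, at 0.76% over all animals against 0.488% for the first inside the gene, with means of 0% in Attacker, 1.19% ± 2.92 in Parental, 0.139% ± 0.311 in Father and 1.61% ± 2.58 in Mother over its 4 cytosines with that coverage.

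The stretch just outside the gene was partly methylated and varied widely between animals of a group. Its 23 cytosines lay 4 to 420 bp from the gene end, and 40.6% of their 347 values with at least 5 reads were neither 0 nor 100. Over the 6 of them with 10 or more reads in every animal, levels ran from 3.72% over a median of 7.17% to 7.66% in Attacker. In Parental they ran from 4.34% over 11.8% to 24.5%, in Father from 5.76% over 7.11% to 10.7%, and in Mother from 4.86% over 13.2% to 23.5%. The highest animals were Parental 2 and Mother 2, and the 4 ranges overlapped. Group means were 6.18% ± 1.85 in Attacker, 12.8% ± 6.87 in Parental, 7.88% ± 2.35 in Father and 12.7% ± 6.78 in Mother.

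**Figure D2:**
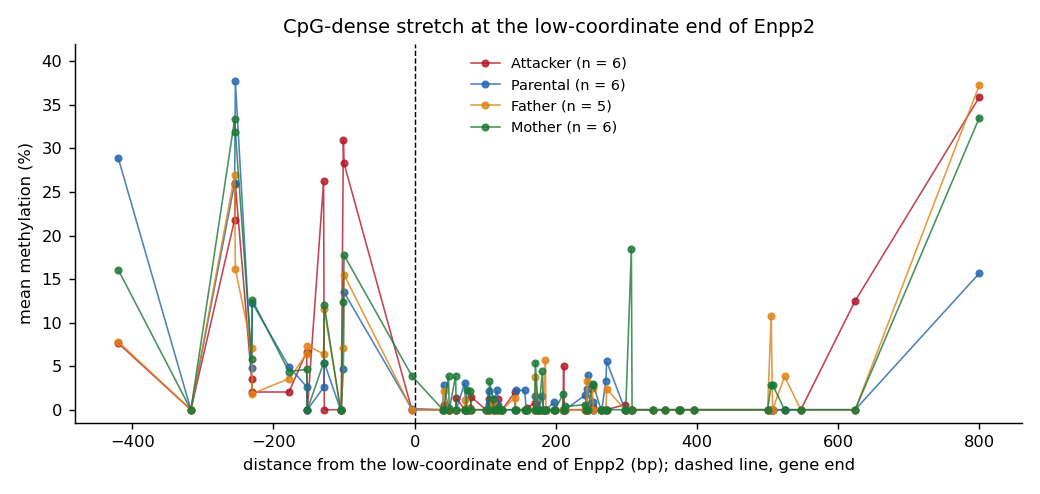
Mean methylation (%) of the cytosines of the first cluster that were read in at least 12 animals, against distance in bp from the low-coordinate end of Enpp2 (dashed line), with a line per group. Levels vary outside the gene end, are at or near 0% at most cytosines inside it and reach 15.7% to 37.3% at the last cytosine, 800 bp inside.

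Cytosines of this outer stretch differed from each other in level. The cytosine at 122839, 255 bp outside the gene and the most deeply read of the window with 7872 reads, was at 21.8% ± 7.86 in Attacker, 26.0% ± 6.53 in Parental, 26.9% ± 4.86 in Father and 33.4% ± 17.7 in Mother. Its values ran from 11.2% over 19.9% to 31.6% in Attacker, 17.9% over 25.6% to 37.0% in Parental, 21.5% over 27.6% to 32.5% in Father, and 14.1% over 28% to 57.4% in Mother. Mother 6 and Mother 2 (52.2%) lay above every other animal, and the remaining animals of the 4 groups were interleaved. Its partner on the opposite strand, 122840, had 1904 reads in all and group means of 25.9% ± 17.1, 37.7% ± 10.2, 16.2% ± 12.7 and 31.9% ± 20.8 in the same order.

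The cytosine at 122674 had the widest range of group means among the 52 well-read cytosines, 21.3 points. It was at 7.65% ± 6.80 in Attacker, 28.9% ± 23.6 in Parental, 7.82% ± 7.98 in Father and 16.1% ± 12.3 in Mother. The Parental animals were split. Parental 6, Parental 4 and Parental 2 had 23 of 41, 46 of 92 and 38 of 89 reads methylated, whereas Parental 3, Parental 5 and Parental 1 were at 15.5%, 9.35% and 0%. No Attacker exceeded 15.9% and no Father 17%, so the 3 lower Parental animals lay within the ranges of those groups. Mother ran from 0% over 13.4% to 36.6%. At 122864, on the other strand of the CpG at 122863, 5 of 6 Attacker and 4 of 5 Father animals were at 0%, and the means were 2.03% ± 4.98 and 1.85% ± 4.14. Parental was at 12.2% ± 16.8, with Parental 2 at 43.9% and the next animal at 17.7%, and Mother at 12.6% ± 13.8 with 3 animals at 0% and 3 at 24%, 25% and 26.5%.

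Levels on opposite strands of a CpG were close in the unmethylated stretch and less so outside it. Of 30 CpGs whose 2 cytosines both had 10 or more reads in at least 12 animals, 21 had mean levels less than 1 percentage point apart, and the median separation was 0.548 points. The widest was 8.52 points, at 122993 and 122994, where the differences within animals had an SD of 23.3 points over 15 animals. Over all animals read, not only these 15, the highest Attacker was at 100% at both. The highest animals of the other groups lay between 18.8% and 42.6%. The Attacker group had 23 of 93 reads methylated in all at 122993 and 24 of 213 at 122994, so its values at 100% rest on few reads. At the inner edge of the cluster, the cytosine at 123894 was read in 22 animals and ranged from 0% to 100%, with means of 35.9% ± 25.7 (n = 6) in Attacker, 15.7% ± 19.7 (n = 6) in Parental, 37.3% ± 49.6 (n = 5) in Father and 33.5% ± 47.3 (n = 5) in Mother. It is named here because of that spread.

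Outside the 2 clusters only 2 cytosines were read in every animal. They lay next to each other at 217341 and 217374, 94247 and 94280 bp inside the gene, with 3088 reads each and near-identical read numbers in every animal. Both were at intermediate levels. At 217341 the values ran from 0% over 46.2% to 84.2% in Attacker and from 9.03% over 19.4% to 70.9% in Parental. Father ran from 32.2% over 35.1% to 54.8% and Mother from 30.6% over 46.9% to 57.1%. The virgin males covered almost the whole scale, and every Father and Mother fell inside the Attacker range. The lowest was Attacker 1, with 0 of 24 reads (95% Wilson interval 0% to 13.8%), and the highest Attacker 6, with 84.2% (77.1% to 89.4%). These intervals lay far apart, but they count each read as a separate molecule, which amplified copies are not.

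Means at 217341 were 41.8% ± 29.996 in Attacker, 30.02% ± 25.9 in Parental, 40.8% ± 10.2 in Father and 45.8% ± 8.54 in Mother. At 217374 they were 32.5% ± 27.8, 23.3% ± 12.3, 31.2% ± 12.5 and 32% ± 13.2. At each of them the 4 means lay within 15.8 and 9.28 points, less than the largest SD within a group. The levels of the pair did not always go together. In Parental 6, 78 of 110 reads were methylated at 217341 but 13 of 109 at 217374. In Attacker 2 the order was the opposite, with 16.2% at 217341 and 34.6% at 217374. Over all animals the SD was 20.7 points at 217341 and 17.1 points at 217374. Cytosines elsewhere in the genome with a mean between 20% and 60% and 10 or more reads in every animal had a median SD of 21.5 points (5th to 95th percentile 12 to 32.5, 18698 cytosines), so a spread of this size was common at intermediate levels.

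**Figure D3:**
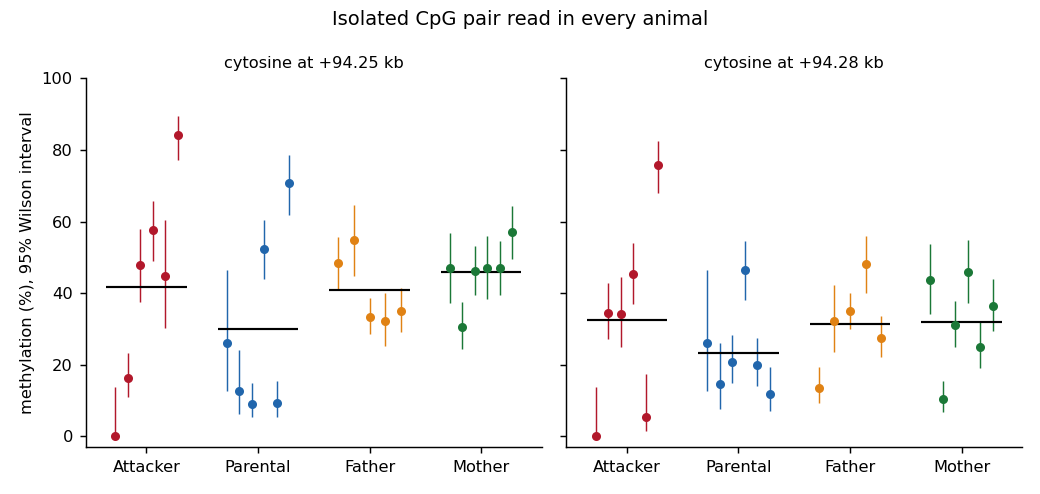
Methylation (%) of the CpG pair read in all 23 animals outside the clusters, each animal a point with its 95% Wilson interval (counting error only) and each group's mean a black line. Attacker spans 0% to 84.2% in the left panel, and the Father and Mother points lie inside that range.

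The remaining 99 cytosines, 94 of them in the gene span, were read in part of the animals only, with a median of 13 reads where read. They were mostly all-or-none. Of 352 values with at least 5 reads, 62.2% were exactly 100, 26.7% exactly 0 and 11.1% in between. Pooled over animals, 59 of these cytosines were at 80% or more and 26 at 20% or less. The unmethylated ones included the 6 cytosines read between 152382 and 153615, next to the second cluster, which were at 0% in every animal with reads. Runs at 175831 to 175874, 194303 and 194355, and 232515 to 232571 were at 100% in every animal with reads.

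The same cytosine could be at 0 in 1 animal and at 100 in another. Among 57 of these cytosines with 5 or more reads in at least 2 animals, 20 were at 100% in all of them, 10 at 0% in all of them, and 14 had at least 1 animal at each extreme. This also happened within groups, at 1 of 33 such cytosines in Attacker, 3 of 21 in Parental, 3 of 18 in Father and 2 of 19 in Mother. Neighbours on the same fragments could differ too: 169392 was at 21.8% of reads, while 169414 and 169417, read in the same 8 animals, were at 98.0% and 100%. The share of values at 100% was 60.5% in Attacker, 65.3% in Parental, 64.0% in Father and 58.8% in Mother, from different sets of cytosines. RRBS libraries without molecular identifiers count amplified copies as separate reads. Whether few starting molecules underlie the values at 0 and 100 was not tested, and the intervals given here cover counting error only.

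The study asked which cytosines differ between the behavioural groups. Differentially methylated cytosines (DMCs) were called here by a beta-binomial test per cytosine of the kind its methods name, with a different criterion, namely that a posterior score, the probability that the group difference is at most 15 percentage points, be under 0.05 without adjustment for multiple tests. A Wald p under 0.05 with a difference over 15 points, the form of rule its methods describe, gave the same DMCs in the window in each comparison, where the genome had 0.851% between Attacker and Parental, 1.04% between Attacker and Father, 1.27% between Parental and Father and 1.27% between Father and Mother. Each cytosine with a read in both groups was tested, and counts in the window are set beside the share of all tested cytosines in the genome that met the criterion. In the window, 6 cytosines met it in at least 1 of 4 comparisons.

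Between Attacker and Parental, 1 of the tested cytosines in the window (0.752%) was a DMC, higher in Attacker. The study reported hypermethylated gene-body sites in the plural for this contrast. At least part of those sites was therefore not called here, under either call rule. The reason for this mismatch was not tested. In the genome 0.685% of 2758337 tested cytosines were DMCs, 0.424% higher in Attacker and 0.261% higher in Parental, and nothing is read from the count because the gene was chosen on this contrast. The DMC was at 217950, 94856 bp inside the gene. Among Attacker males it was read in 1 animal, Attacker 2, with 21 of 21 reads methylated, and among Parental males in 3, with 0 of 22, 0 of 13 and 0 of 9 reads methylated, in all 0 of 44, which allows a level of up to 6.82%. Its fitted levels were 83.3% and 6.69%, with a score of 0.0202. The value in Attacker therefore rests on 1 male, and without Attacker 2 the cytosine could not be tested. Elsewhere, Father 4 was at 0 of 11 and Father 5 at 2 of 2 reads, Mother 4 at 3 of 24 and Mother 6 at 0 of 14.

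No other cytosine of the window lay inside the threshold in that contrast. Just outside it was 168402, 45308 bp inside the gene, with a score of 0.0701 and fitted levels of 89.96% in Attacker and 33.8% in Parental. The next, 118814, had a score of 0.151 on 1 read in Attacker and 8 in Parental. At 168402, Attacker 4 and Attacker 5 were fully methylated (41 of 41 and 12 of 12 reads), and so was Parental 6 with 29 of 29. Parental 1, Parental 2 and Parental 3 were unmethylated, with 0 of 16, 0 of 8 and 0 of 29 reads. The Parental group thus held both extremes. In Father the 3 animals read were all at 100% (17 of 17, 3 of 3 and 6 of 6 reads), as was the 1 Mother read (23 of 23). This cytosine was a DMC between Parental and Father, lower in Parental, with a score of 0.0492 and fitted levels of 33.6% and 92.1%.

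**Figure D4:**
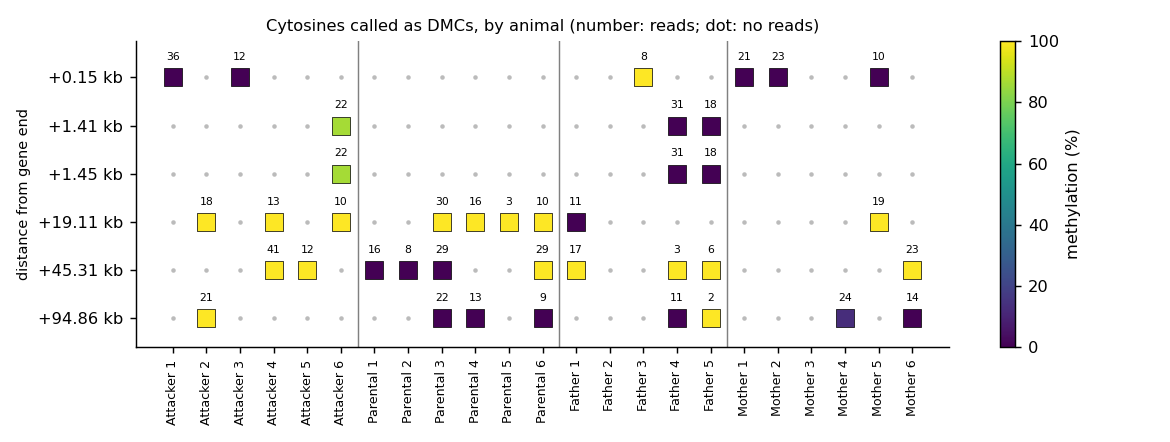
Methylation (colour, %) of the 6 cytosines that met the DMC criterion in any comparison, in rows by distance from the low-coordinate end of Enpp2, and the 23 animals in columns. The number above a square gives its reads and a grey dot stands for no reads; most squares are at 0% or 100%, and most of the map is empty.

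The DMCs in the contrasts with Father likewise rested on few animals. Between Attacker and Father there were 4 of 136 (2.94%), 3 higher and 1 lower in Attacker, where the genome had 0.85%, 0.539% higher and 0.312% lower in Attacker. Between Parental and Father there were 2 (1.55% of those tested), 1 in each direction, where the genome had 1.03%, 0.533% higher and 0.495% lower in Parental. At 142201, in the long poorly read stretch, 3 Attacker, 4 Parental and 1 Mother were fully methylated, with 41 of 41, 59 of 59 and 19 of 19 reads in all. Father 1 alone among the Father males had reads there and was at 0 of 11, which allows a level of up to 27.3%. That animal made the cytosine a DMC in both contrasts. The neighbouring cytosines 124508 and 124547 had the same reads, 19 of 22 methylated in Attacker 6 against 0 of 31 in Father 4 and 0 of 18 in Father 5, and count as 1 observation.

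Father and Mother were compared as a test independent of the choice of the gene. Of 126 tested cytosines 1 was a DMC (0.794%), higher in Father, against 1.02% of 2612548 in the genome, 0.563% higher and 0.456% lower in Father. The order of the 2 shares turned with single animals: with each animal left out in turn the window had 0.8% to 2.44% and the genome 1.25% to 1.54%, and in 8 of 11 such fits the share in the window was the higher. Of these, the fits without Mother 3 and without Mother 4 had 3 DMCs each in the window. Under weights scaled per cytosine the window had 2 or 4 DMCs (1.59% and 3.17%) against 2.78% and 3.83% in the genome, and in an arcsine-link linear model 3 (2.52%) against 4.38%. A count of 1 to 4 thus set the window neither above nor below the background in all fits. It was 123246, 152 bp inside the gene within the unmethylated cluster. Father 3 had 8 of 8 reads methylated there, and Mother 1, Mother 2 and Mother 5 had 0 of 21, 0 of 23 and 0 of 10. No other Father had a read at this cytosine. The fitted levels were 83.2% in Father and 6.43% in Mother with a score of 0.0198. Attacker 1 and Attacker 3 were at 0 of 36 and 0 of 12 reads, which made it a DMC lower in Attacker than in Father as well. Without Father 3 it could not be tested in either contrast. The cytosine on the opposite strand, 123245, had no reads in Father 3, and was at 0% in all 7 animals in which it was read.

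At cytosines with 10 or more reads in 4 or more animals per group, no difference at Enpp2 passed a Benjamini-Hochberg adjusted p of 0.05 over all such cytosines of the genome. In Father against Mother 86 such cytosines lay in the window and 0 were called, while the genome had 9 calls among 1183211 (0.000761%). None of the 86 had an unadjusted p under 0.05 in the beta-binomial test, and the arcsine-link linear model also called 0 in the window, where it made 2198 calls in the genome (6147 with the replicate number as a block, again 0 in the window). Fitted differences at the 86 ran from 13.9 points lower to 9.63 points higher in Father, with a median size of 0.45 points. At 122840 the fitted difference was the one of 13.9 points, and at 122864 Father was lower by 11.2 points. In the other 3 comparisons 80 to 84 cytosines had this coverage and 0 were called, against 3 calls (0.000237%) between Attacker and Parental, 7 (0.000604%) between Attacker and Father and 5 (0.000421%) between Parental and Father in the genome. Differences of more than 15 points were fitted at 4, 2 and 3 of them, and none had an unadjusted p under 0.05.

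The gene-wide level, the mean over the 52 cytosines with 10 or more reads in every animal, was low in all groups because 46 of the 52 had a mean under 5%. Of the 52, 40 lay in the first cluster inside the gene, 6 in that cluster outside it and 4 in the second cluster. Only the isolated pair, 2 cytosines, came from the rest of the gene. The level thus describes mainly the first cluster and says little about the sparsely read, mostly methylated remainder. Over all animals the 6 outer cytosines were at 9.99% and the pair at 34.6%. Attacker ran from 0.886% over 2.25% to 3.87%, Parental from 1.505% over 3.17% to 4.39%, Father from 2.02% over 2.84% to 3.27%, and Mother from 2.04% over 3.76% to 4.42%. The lowest animals were Attacker 1 and Attacker 2, and the 4 ranges overlapped. In order, the means were 2.34% ± 1.13 in Attacker (n = 6), 2.67% ± 0.528 in Father (n = 5), 3.00% ± 1.22 in Parental (n = 6) and 3.62% ± 0.863 in Mother (n = 6). Neighbours in that order were 0.323, 0.329 and 0.62 points apart, each less than the larger SD of the 2 groups. The order changed with the cytosines used: over the 46 within the gene span Attacker was 0.131 points above Parental, and Parental minus Father was -0.275 points.

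Father was lower than Mother by 0.949 points, and the difference did not reach significance in a two-sided exact permutation test (p = 0.0606, 462 splits, smallest p possible 0.00433). Of the 6 Mothers 5 lay above every Father. Without the exception, Mother 3, Father was lower by 1.26 points (exact permutation p = 0.00794). With Mother 3 left out the 2 groups no longer overlapped, so this p was the smallest possible for 5 against 5 animals. Nothing is read from it. The size of the difference moved with the cytosines used. Over the 46 cytosines within the gene span it was -0.447 points (exact permutation p = 0.251). Over the 14 cytosines with 20 or more reads in every animal it was -1.62 points (exact permutation p = 0.0649). With the reads of both strands summed the exact permutation p was 0.0433 for a difference of 0.953 points, whereas the share of methylated calls gave 0.514 points and p = 0.524 in the same exact test.

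**Figure D5:**
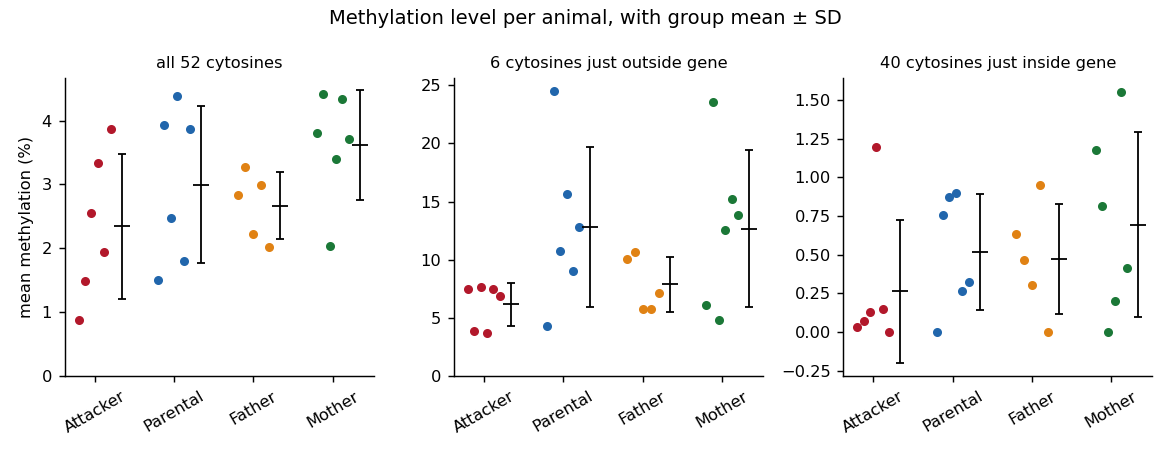
Methylation level per animal (points, %) over the 52 well-read cytosines of the Enpp2 window, the 6 of them just outside the gene and the 40 just inside, with the mean ± SD of each group in black. The axes differ between panels, and the 4 groups overlap in each.

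The spread of the gene-wide level between animals, an SD of 1.04 points over the 23, was larger than that of 62.8% of the 8825 other genes with at least 10 such cytosines in their span and flanks, whose median SD was 0.791 points. The mean level of Enpp2 was also higher, 2.92% against a median of 1.13% over genes. Spread rose with level: well-read cytosines of the genome had a median SD of 1.78 points at means of 0 to 5% and 12.6 points at 5 to 20%. The rank was not adjusted for level, nor for the number of cytosines averaged, which was 52 at Enpp2 and 10 or more at the other genes. The genes whose level followed that of Enpp2 most closely over the 23 animals were Wdr26 (Pearson r = 0.71), Gabbr1 (0.693), Cables1 (0.669), Mvd (0.662) and Ankrd34a (0.652). These are the highest of 8825 values, of which 5th and 95th percentiles were -0.327 and 0.357, and are given as a description.

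Other genes of LPA metabolism and response were set beside the same genome-wide shares of DMCs, which were 0.685% between Attacker and Parental, 0.85% between Attacker and Father, 1.03% between Parental and Father and 1.02% between Father and Mother. Of 13 listed relatives of autotaxin and other enzymes that make LPA or similar lipids, 11 were found in the annotation. Between Attacker and Parental 5 of their 504 tested cytosines were DMCs (0.992%), all higher in Attacker where the genome had 0.424% in that direction, 4 of them in Enpp1 and 1 in Enpp3, both nucleotide pyrophosphatases. Between Attacker and Father the count was 1 of 458 (0.218%), between Parental and Father 8 of 455 (1.76%, 4 in each direction) and between Father and Mother 6 of 441 (1.36%, 4 higher and 2 lower in Father), of which 3 were in Enpp6, a choline-specific phosphodiesterase of oligodendrocytes. The median fitted difference between Attacker and Parental was 0.636 points for these genes and 0.718 points over all tested cytosines.

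Among LPA receptors 3 of 6 were found, and only Lpar1 and Lpar3 had reads. They held 3 DMCs of 203 between Attacker and Parental (1.48%, genome 0.685%), all lower in Attacker (genome 0.261% in that direction), 2 of them in Lpar1. In the comparisons of Attacker with Father, Parental with Father and Father with Mother they held 1 of 190 (genome 0.85%), 6 of 183 (3.28%, genome 1.03%) and 4 of 184 (2.17%, genome 1.02%). The 8 LPA phosphatases and related proteins had 6 of 868 (0.691%), 6 of 836 (0.718%), 7 of 816 (0.858%) and 13 of 797 (1.63%) in the 4 comparisons, the last with 6 higher and 7 lower in Father. In Plppr2, of the neuronal relatives of these phosphatases, singled out after its count was seen, 6 of 72 tested cytosines were DMCs between Father and Mother. The members of a list share fragments and depth, and these counts were not tested against the background.

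As background to the cell types known for Enpp2, the methylation of marker genes of choroid plexus, oligodendrocytes and granule neurons, the main neurons of the dentate gyrus, was set beside it. At well-read cytosines in 4 choroid plexus marker genes the level was 2.75% ± 1.02 in Attacker, 2.27% ± 1.23 in Parental, 2.16% ± 0.796 in Father and 2.93% ± 0.571 in Mother. At 2 oligodendrocyte genes (Mbp and Mag) the levels were 13.3% ± 3.42, 13.3% ± 2.92, 10.8% ± 4.38 and 10.8% ± 2.10, and at 4 granule neuron genes 14.8% ± 3.02, 14% ± 1.24, 13.5% ± 1.46 and 13.9% ± 1.60. The ranges of the groups overlapped in all 3 lists. These lists cover 4 of 10, 2 of 10 and 4 of 7 listed genes, and the part of cell composition in the Enpp2 values was not tested.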

How the data were processed

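RRBS libraries from 23 animals were used. The authors trimmed reads with Trim Galore, used Bismark for alignment to the MicOch1.0 assembly, and deposited, per CpG cytosine and animal, whole-number counts of reads and of methylated reads, with each strand's cytosine listed separately and cytosines without reads left out. These deposited counts were joined by position, and levels are methylated reads over reads. The beta-binomial Wald test of the DSS method without smoothing was re-implemented in Python 3.11.15 (numpy 2.4.6, numba 0.67.0, scipy 1.17.1), with read weights scaled by their genome-wide mean, and tested on simulated data. The call rule, a posterior score, differs from the Wald p and difference limit in the study's methods, which was run as an alternative. It was fitted to all cytosines of the genome with reads in both groups. Named are the 6 DMCs of the window, the 5 cytosines with the widest range of group means among those with 10 reads in every animal, the cytosines next to the score threshold, and the 5 genes most correlated with Enpp2. A few others were named after their values were seen. Enpp2, the gene lists and the tests were chosen with earlier results of these data known. Animals are the replicates. Library pairs shared identical counts at 1.36% of common cytosines at most. Alternatives covered weights, call rule, coverage, strands, model, block and each animal left out. Intervals are 95% Wilson, the limit for 0 methylated reads is 3 reads of the total, and sequence was not used here.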

Additional observations from a re-analysis of the deposited data

Results flagged for a closer look

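Within each group of 4 to 10 animals, the highest and lowest animals were compared with the rest by Dixon's criterion, in 42 groups of values. Chance alone flags about 1 in 20 such groups, and many of these groups hold mostly values at 0, where any animal above 0 stands apart. In 6 of them an animal did. Attacker 4 had a level of 1.19% over the 40 cytosines just inside the gene, where the other 5 Attacker males lay between 0% and 0.15%. In the second unmethylated cluster Parental 6 was at 7.14% and Father 4 at 0.694%, with every other animal of their groups at 0%. At 122864 Attacker 1 was at 12.2% and Father 4 at 9.26%, again with all others of the group at 0%. At 168402 Parental 6 was at 100% on 29 reads, with the other 3 Parental males read there at 0%; without Parental 6 this cytosine also met the DMC criterion between Attacker and Parental, where the group means were then at opposite extremes.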

How the results depend on the processing

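DMC counts in the window moved with the settings. Weights scaled per cytosine over all animals gave 1 DMC between Attacker and Parental, 6 between Attacker and Father, 1 between Parental and Father and 2 between Father and Mother, and scaled over the animals with reads 2, 6, 2 and 4, while the share called in the genome rose to between 2.6% and 2.78% and between 3.71% and 3.89%. An adjusted p under 0.05 over the genome, or coverage limits of 5 reads in 3 animals or 10 reads in 4 animals per group, left 0 in each comparison. The arcsine-link model gave 4, 5, 3 and 3, and with the replicate block 2, 0, 1 and 2, of which 0 were among the DMCs reported above. Its genome share without the block was computed only between Father and Mother, 4.38% against 2.52% in the window. No genome share was computed for the block, for merged strands, or for animals left out in the comparisons other than Father with Mother. Nothing is read from counts without such a share. The labels do not say whether replicate numbers pair animals. Correlations of same-numbered deviations lay between -0.0193 and 0.0521, none over 0.1. These values cannot settle the question, because paired animals need not share deviations. With strands merged the counts were 1, 4, 2 and 1, and the 1 between Father and Mother was not 123246. Leaving out each animal gave 0 to 2 DMCs between Attacker and Parental (0 without Attacker 2, 2 without Parental 6), 2 to 6 between Attacker and Father (2 without Father 4, 6 without Father 5), 0 to 2 between Parental and Father (0 without Father 1) and 1 to 3 between Father and Mother (3 without Mother 3 or Mother 4). The count at well-covered cytosines between Father and Mother was 0 under every alternative, the replicate block included.

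The gene-wide difference between Father and Mother kept its direction under every setting and ran from -1.26 to -0.788 points with each animal left out. In exact permutation tests p was 0.0433 with strands merged (-0.953 points) and 0.00794 without Mother 3, the smallest possible for 5 against 5 animals. In the other alternatives p ran from 0.0571 to 0.524. Within replicate numbers it was 0.125 (replicate block, exact sign-flip test, 5 pairs, smallest p possible 0.0625). The difference was -0.447 points without the flanks (exact permutation p = 0.251) and -1.62 at 20 reads in every animal. The untested differences changed sign: Attacker minus Parental, -0.653 points, became 0.401 as the share of methylated calls, 0.131 without the flanks and 0.0131 as deviations from each cytosine's mean; Attacker minus Father, -0.323 points, became 0.137 as such deviations; Parental minus Father, 0.329 points, became -1.01 as the share of calls and -0.275 without the flanks. With each animal left out they kept their sign and ran from -0.959 to -0.361 (Attacker minus Parental), -0.629 to -0.0315 (Attacker minus Father) and 0.051 to 0.628 (Parental minus Father). Causes were not tested. Depth limits the 109 cytosines read in fewer than 12 animals, where 1 animal can stand for a group.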
